A study of Mus musculus with 168 samples.

Results

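Ocular motor neurons of mice with spinal muscular atrophy (SMA) were compared with those of littermate controls at postnatal day 10, a symptomatic age. The comparison holds 12 of the 168 samples in the series, chosen by their labels: 6 control samples from 4 mice and 6 SMA samples from 5 mice. The neurons were cut by laser from the oculomotor and trochlear nuclei of the midbrain, about 150 cells to a tube, and their polyA RNA was made into Smart-seq2 libraries, a full-length cDNA method for very small inputs. The study sampled motor neuron populations that differ in their loss in SMA at 3 ages, and the ocular neurons are a spared population. SMA mice had the genotype Smn-/-/SMN2+/+/SMN∆7+/+, and controls had Smn+/+/SMN2+/+/SMN∆7+/+, so both groups carried human SMN2 and the SMN∆7 transgene and differed in mouse Smn. Control mice 247 and 253 gave a library of both nuclei, control mouse 252 gave a library of both nuclei and a library of the oculomotor nucleus, and control mouse 254 gave a library of each nucleus. SMA mice 199, 249 and 250 gave a library of both nuclei, SMA mouse 196 gave a library of each nucleus, and SMA mouse 258 gave the oculomotor nucleus alone. Libraries of the same mouse were averaged and the mouse is the replicate, so n is 4 controls and 5 SMA mice throughout unless stated. The p-values for ocular neurons rest on a spread between mice pooled over the 6 ocular groups of genotype and age (28 mouse samples). Those that involve other populations rest on the spread pooled over the 8 day 10 groups. Both fits also drew on other genes to estimate the spread of each gene.

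SMN, the protein that SMA mice lack in sufficient amount, loads Sm proteins onto the small nuclear RNAs of the spliceosome. Shortage of SMN is known to activate p53, a transcription factor that halts the cell cycle, promotes DNA repair and can trigger cell death, in vulnerable spinal motor neurons. The oculomotor and trochlear nuclei drive the muscles that move the eyes, which are largely spared in SMA and in other motor neuron diseases.

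Levels are RPKM (reads scaled by the length of the gene and the depth of the library) as the authors deposited them. A difference is SMA minus control on the log2(RPKM + 1) scale with its standard error (SE). It understates the change of genes with low values. A gene was called when its limma p-value, adjusted over all genes tested by the method of Benjamini and Hochberg, was below 0.05. Depth was 4.16 to 7.49 M reads (M, the SI prefix mega) in the 6 control libraries and 3.84 to 5.91 in the 6 SMA libraries, and each library had 14691 to 18221 rows above 0. Across genes tested, libraries of different mice correlated at r = 0.882 to 0.951 and the 3 pairs of libraries from the same mouse at r = 0.927 to 0.956.

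The samples held motor neuron transcripts. The summed level of 6 motor neuron markers was 957 to 1047 in controls and 461 to 901 in SMA mice, a range below that of the controls, and no marker in any list of cell types was called. Hoxc10 and Hoxc6, which mark the spinal cord, were at 0 in all 9 mice. The summed level of 10 microglia markers was 10.5 to 32.5 in controls and 0.0489 to 25.5 in SMA mice. Among them Aif1 reached 15.3 and C1qb 16.9, both in control mouse 247, whereas Ptprc was at most 0.0533 and Cx3cr1 at most 0.838. The oligodendrocyte gene Mbp was at 181.6 to 309.1 over all 9 mice. The summed level of 10 oligodendrocyte markers was 400.4 to 573.9 in controls and 368.8 to 626.4 in SMA mice, and that of 8 astrocyte markers 1476 to 1908 and 1464 to 1846, so the groups overlapped for these 3 lists. Aldoc, at 1395 to 1876 over all 9 mice, made up most of the astrocyte sum and had a difference of -0.15. The other astrocyte markers had differences of 0.11 to 1.01, largest for Gja1, and none was called. The summed level of 3 oligodendrocyte precursor markers was 2.37 to 4.19 in controls and 3.79 to 8.97 in SMA mice, a range that lay mostly higher. Of these, Gpr17 had a difference of 0.81 and was not called. In bulk samples, fewer cells of a type and less RNA per cell cannot be told apart.

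Markers of red nucleus and serotonin neurons were highest in SMA mice 250 and 199 and present in some other SMA mice. Pou4f1 and Slc17a6, which mark red nucleus neurons, summed to 176.9 in SMA mouse 250 against 4.74 to 16.9 in controls, and the same mouse had the lowest level of Isl1 (21.1) and Slc5a7 (72.2). The serotonin neuron genes Tph2 and Slc6a4 were at 39.9 and 32.8 in SMA mouse 199 and at most 0.284 in every control, and SMA mouse 196 held them at 5.01 and 2.72. Slc17a6 was at 14.2, 16.6 and 21.5 in SMA mice 196, 199 and 258, also above its control range of 4.74 to 12.7. Cartpt, a peptide gene of the neighbouring Edinger-Westphal nucleus, ran from 0 to 36086 across SMA mice and from 18.7 to 1839 across controls. Markers of 2 other neuron types were highest in a control. The summed level of 3 GABA neuron markers was 2.78 to 37.8 in controls and 1.03 to 24.1 in SMA mice. That of 2 dopamine neuron markers was 0 to 11.8 and 0 to 6.06. Th and Gad2 were highest in control mouse 247, at 11.8 and 18.1. The pericyte gene Rgs5 was at 38.1 in SMA mouse 249 and at most 3.35 in the other mice. The Y-linked gene Eif2s3y was at 39.5 to 48.3 in control mice 247 and 252 and SMA mouse 249 and at 0 in the remaining mice, so the groups differed in their share of such mice, and none of the 53 called genes with a known position lay on chromosome X or Y. The labels number the libraries without saying what the numbers mean, and those of SMA mice 196 and 199 are below those of all controls. Counts without SMA mice 199 and 250 are given beside the results they touch, and the part of neighbouring cells in any result was otherwise not tested.

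**Figure D1:**
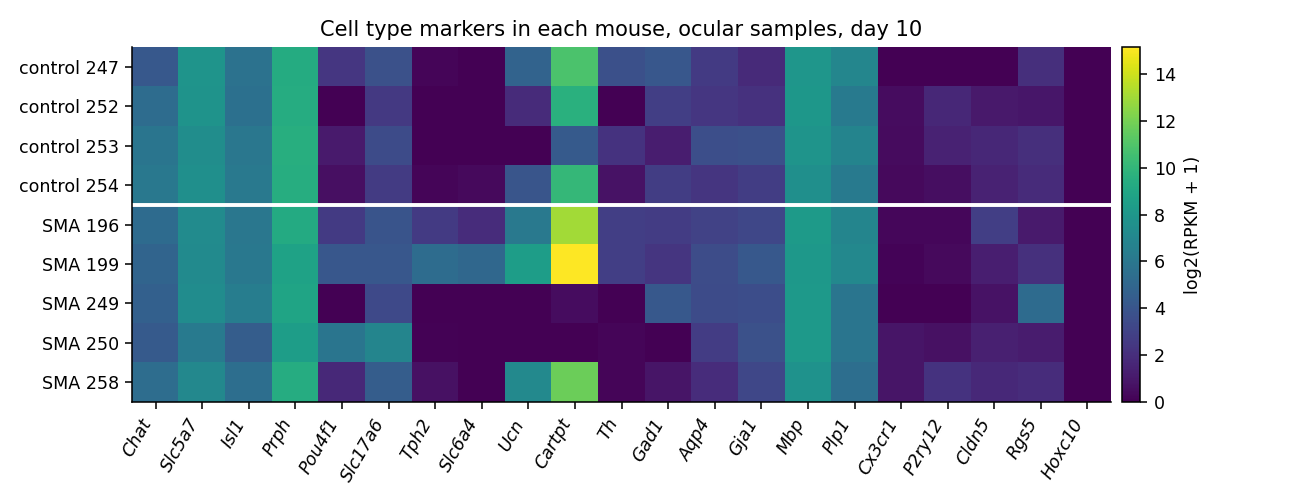
Level of 21 cell type markers (columns, log2(RPKM + 1), colour scale) in each of the 9 mice (rows, controls above the white line and SMA mice below it). SMA mouse 199 holds Tph2 and Slc6a4, SMA mouse 250 holds Pou4f1 and Slc17a6, and Cartpt varies most between mice.

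Smn1 separated the genotypes as labelled. Its level was 34.6, 13.1, 20.5 and 23.3 in control mice 247, 252, 253 and 254 and 0 in all 5 SMA mice, in each of their 6 libraries. The fitted difference was -4.50 (SE 0.45, adjusted p 2.94e-07), and its size depends on the pseudocount because the SMA group is listed at 0. The row for human SMN2 was at 110.9, 156.4, 89.8 and 109.1 in controls and 88.6, 124.7, 97.4, 102.2 and 163.7 in SMA mice, and the groups overlapped (difference -0.02, SE 0.23). How reads were divided between mouse Smn1 and the human transgenes is not stated.

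Of 15890 genes tested, 53 were higher in SMA ocular neurons (0.334%) and 4 were lower (0.0252%), Smn1 among them. The largest rises were in the p53 target Cdkn1a and in Iapp and Ly6d, which were at or near 0 in controls. The falls other than Smn1 were the CGRP gene Calcb, the neurofilament gene Nefm and the long noncoding RNA Gm10684. At an unadjusted p below 0.05, 662 genes (4.17%) were higher and 276 (1.74%) lower. The values of the 5 SMA mice lay entirely above those of the 4 controls for 369 genes (2.32%) and entirely below for 1.1%. The median difference over all genes tested was 0.06, with 9027 genes above 0 and 6824 below. Among the called genes, 50 of 53 rises and 4 of 4 falls had no overlap between groups, and the rises that overlapped were Snord67, Ifitm2 and S100a3. The calls were made on these same mouse values, so the lack of overlap is partly built in.

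**Figure D2:**
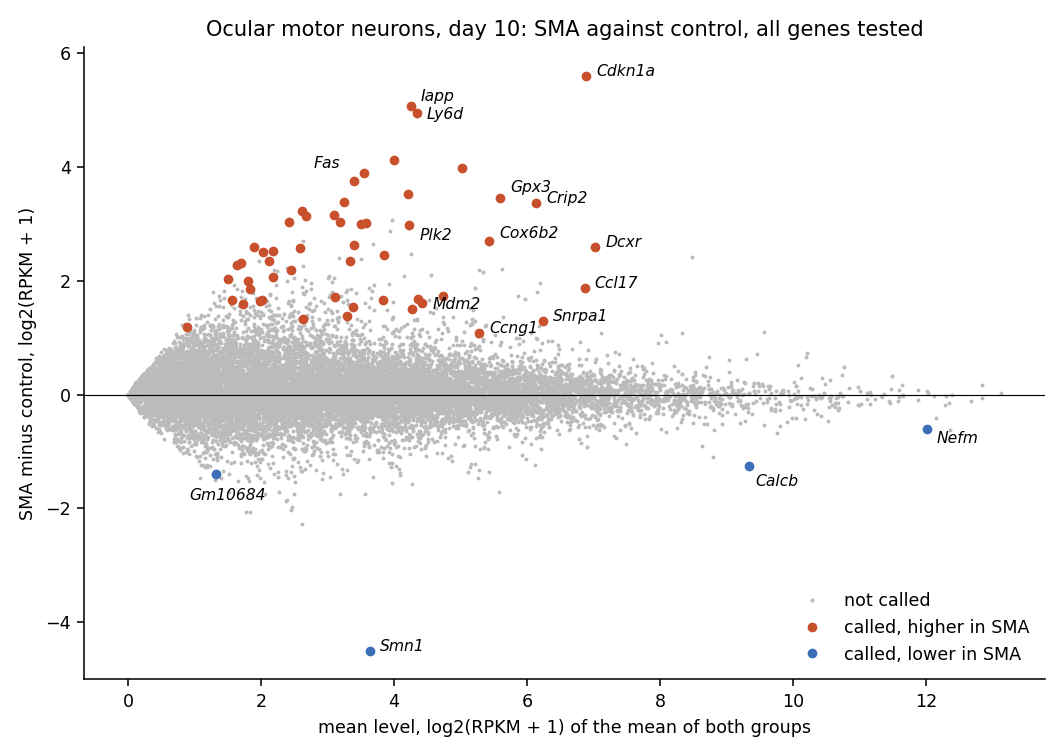
Difference between SMA and control ocular neurons at day 10 (vertical axis, log2(RPKM + 1)) against mean level (horizontal axis, log2) for the 15890 genes tested, grey where not called. The 53 called rises (orange) spread from 1.08 to 5.59, and the 4 called falls (blue) include Calcb and Nefm, which are abundant.

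The counts depended on which mice were included. Without control mouse 247 the count of rises was 35 and that of falls 2, and 31 of the 57 calls held whichever of the 9 mice was left out. Without SMA mice 199 and 250, 61 genes were called higher and 2 lower. The 61 held 46 of the 53 rises, and 2410124H12Rik, Dapk1, Homer3, Itpripl1, Snord67, Spint2 and Tagln2 were lost, as were the falls Calcb, Nefm and Gm10684. That setting keeps SMA mice 196 and 258, which also held markers of neighbouring neurons. Ucn, another peptide gene of the Edinger-Westphal nucleus, was at 70.0 and 140.1 in them. It was at most 27.7 in controls and at 0 in SMA mouse 249, which is kept too. In a fit of only the 2 groups compared, 50 of 13343 genes were called higher and 3 lower. Calcb, Nefm, Mdm2 and Snrpa1 were among the calls lost there. The settings named for single genes below are not a full list of those in which a call was lost.

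The first group of rises was p53 targets that act on the cell cycle. Of 11 such genes listed and tested, 5 were called higher and none lower, and their median difference was 1.49, against 0.334% of all genes called higher and an overall median of 0.06. Cdkn1a encodes p21, an inhibitor of cyclin-dependent kinases and the best known p53 target, at chr17:29090976-29100727 (GRCm38). Its level was 3.85, 1.62, 5.04 and 5.23 in controls and 274, 197.7, 228.7, 152 and 305 in SMA mice 196, 199, 249, 250 and 258. Every SMA mouse was thus far above every control, with a mean of 231.6 ± 60.6 (SD, n = 5) against 3.93 ± 1.66 (SD, n = 4), a ratio of 58.9, and the groups did not overlap. The difference was 5.59 (SE 0.35, adjusted p 1.79e-11).

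Cdkn1a and 3 other risen genes had a match to the p53 response element near a start site, and their sequences are shown because Cdkn1a had the largest rise. The element is a pair of decamers, and a match was allowed 1 mismatch in all and up to 13 bases between the decamers, within the 250 bases before a RefSeq start (GRCm38.p6). The consensus reads the same on both strands. Of the 53 risen genes, 43 matched a RefSeq promoter, and 4 of these (Cdkn1a, Ccng1, Fam212b and Ifitm2) held a match, against 0.577% of the 27025 genes with a promoter. Capitals mark the match, both decamers and any bases between them, and each sequence is given 5′ to 3′ on the strand of its gene. The lines show Cdkn1a at chr17:29090903-29090972 (plus strand), Ccng1 at chr11:40755437-40755506 (minus strand), Fam212b at chr3:105705330-105705411 (plus strand) and Ifitm2 at chr7:140956125-140956202 (minus strand).
Cdkn1a: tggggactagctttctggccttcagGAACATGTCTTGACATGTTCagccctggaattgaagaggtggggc
Ccng1: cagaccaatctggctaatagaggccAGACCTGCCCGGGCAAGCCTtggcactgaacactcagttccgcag
Fam212b: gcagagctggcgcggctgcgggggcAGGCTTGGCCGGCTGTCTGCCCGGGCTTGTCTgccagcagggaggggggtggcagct
Ifitm2: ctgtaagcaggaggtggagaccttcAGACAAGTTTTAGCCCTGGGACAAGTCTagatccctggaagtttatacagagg
In Cdkn1a and Ccng1 the decamers adjoin, with 1 mismatch, and in Cdkn1a the match begins 51 bases before the start. In Fam212b and Ifitm2, 12 and 8 bases lie between them. A match is a description of these letters and not evidence of binding, and p53 elements farther from a start were not searched.

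Ccng1, the gene of cyclin G1, was the most even of the called rises. Its level was 22.6, 22.4, 24.8 and 25.9 in controls and 58.9, 51.2, 50.97, 50.5 and 46.7 in SMA mice, with a mean ratio of 2.16. The difference was 1.08 (SE 0.17, adjusted p 0.000997). Plk2, a polo-like kinase, was at 4.003, 2.19, 2.32 and 3.76 in controls and 25.1, 25.8, 60.3, 25.04 and 25.7 in SMA mice. SMA mouse 249 was the highest, and the remaining 4 SMA mice lay within 1 RPKM of each other (difference 2.97, SE 0.37, adjusted p 2.31e-05). The value of SMA mouse 196 averages 29.1 in its oculomotor and 21.1 in its trochlear library. Psrc1, which encodes a protein of the mitotic spindle, was at 0 in 3 controls and 0.0554 in control mouse 254, and at 10.7, 6.72, 19.6, 2.16 and 12.3 in SMA mice (difference 3.23, SE 0.43, adjusted p 5.17e-05). Gtse1, a microtubule protein of dividing cells, was at most 0.946 in controls and 2.83 to 10.6 in SMA mice (adjusted p 0.00981), and its call was lost without control mouse 252. The listed genes Btg2, Ckap2, Zmat3 and Plk3 had differences of 1.97, 1.49, 0.62 and 0.81 and did not pass the test, and Gadd45a (-0.20) and Sfn (-0.13) were on the other side of 0.

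The second group was p53 targets that act in cell death. All 15 listed genes were tested, 15 had a difference above 0, and 4 were called higher, with a median difference of 1.36. Of all 15890 genes tested, 9027 had a difference above 0 and 0.334% were called higher. Fas encodes a death receptor of the cell surface. Its level was 2.10, 0, 0 and 0.0610 in controls and 15.3, 9.68, 35.95, 17.1 and 26.1 in SMA mice. The lowest SMA mouse was above the highest control, which was mouse 247 (difference 3.89, SE 0.56, adjusted p 0.000158). Lrdd, also named Pidd1, encodes a scaffold that activates caspase-2, and was at 1.72, 0.238, 2.86 and 1.16 in controls and 19.9, 14.6, 31.3, 8.03 and 21.6 in SMA mice (difference 3.00, SE 0.53, adjusted p 0.00257). Ddit4l, a relative of the mTOR inhibitor Ddit4, was at 0.796 in control mouse 253 and 0 in the other controls, and at 3.67 to 18.1 in SMA mice (adjusted p 0.000316). Pmaip1, which encodes the BH3-only protein Noxa, was at 0.208 to 0.958 in controls and 3.07 to 8.08 in SMA mice (difference 2.07, SE 0.45, adjusted p 0.0243), and its call was lost when any mouse but SMA mouse 250 was left out.

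Other death genes of the list did not pass the test. Bax, the pore-forming member of the BCL2 family, was at 52.1 to 68.3 in controls and 47.2 to 94.9 in SMA mice, and the groups overlapped (difference 0.32, SE 0.25). Bbc3 and Perp had differences of 1.03 and 1.72. Tnfrsf10b, a further death receptor gene, was at 0 in 3 controls and 0.219 in control mouse 254 and at 0.657 to 2.43 in SMA mice, just outside the threshold (adjusted p 0.0824). None of 20 tested genes on a separate list of apoptosis machinery was called, and their median difference was 0.10.

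Repair and metabolism targets of p53 were less uniform. Of 15 tested, 9 had a difference above 0 and 6 below, with a median of 0.49, and Dcxr alone was called. Over all genes tested, 9027 were above 0 and 6824 below. Dcxr encodes L-xylulose reductase and was at 29.3, 40.4, 22.2 and 37.2 in controls and 204.9, 152, 282, 77.7 and 418 in SMA mice. The SMA values varied more than 5-fold among themselves and all lay above the controls (difference 2.60, SE 0.56, adjusted p 0.0219). The Dcxr call was lost without SMA mouse 196, 249 or 258 or control mouse 247, 253 or 254, and with no filter on low values. Of 9 tested genes in the list of p53 and its regulators, all 9 had a difference above 0 and Mdm2 was called. Mdm2, the ubiquitin ligase that degrades p53 and is itself a target, was at 5.11, 15.2, 8.86 and 10.0 in controls and 34.9, 28.4, 42.9, 17.6 and 31.7 in SMA mice (difference 1.601, SE 0.31, adjusted p 0.00763). Its call was lost without control mouse 247, without SMA mice 196 and 199, or with only the 2 groups compared. Trp53, the gene of p53, was at 10.6 to 15.9 in controls and 17.4 to 27.6 in SMA mice (difference 0.70, SE 0.37, adjusted p 0.875). None of 21 tested genes of DNA damage sensing and repair was called, with a median of 0.12. Over the 3 lists of targets, 10 of 41 genes were called higher, all 10 of which were also called without SMA mice 199 and 250. Without SMA mice 196 and 199, 7 were called, and with a pseudocount of 0.1, 6 were called (Gtse1, Lrdd, Pmaip1 and Dcxr were lost).

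**Figure D3:**
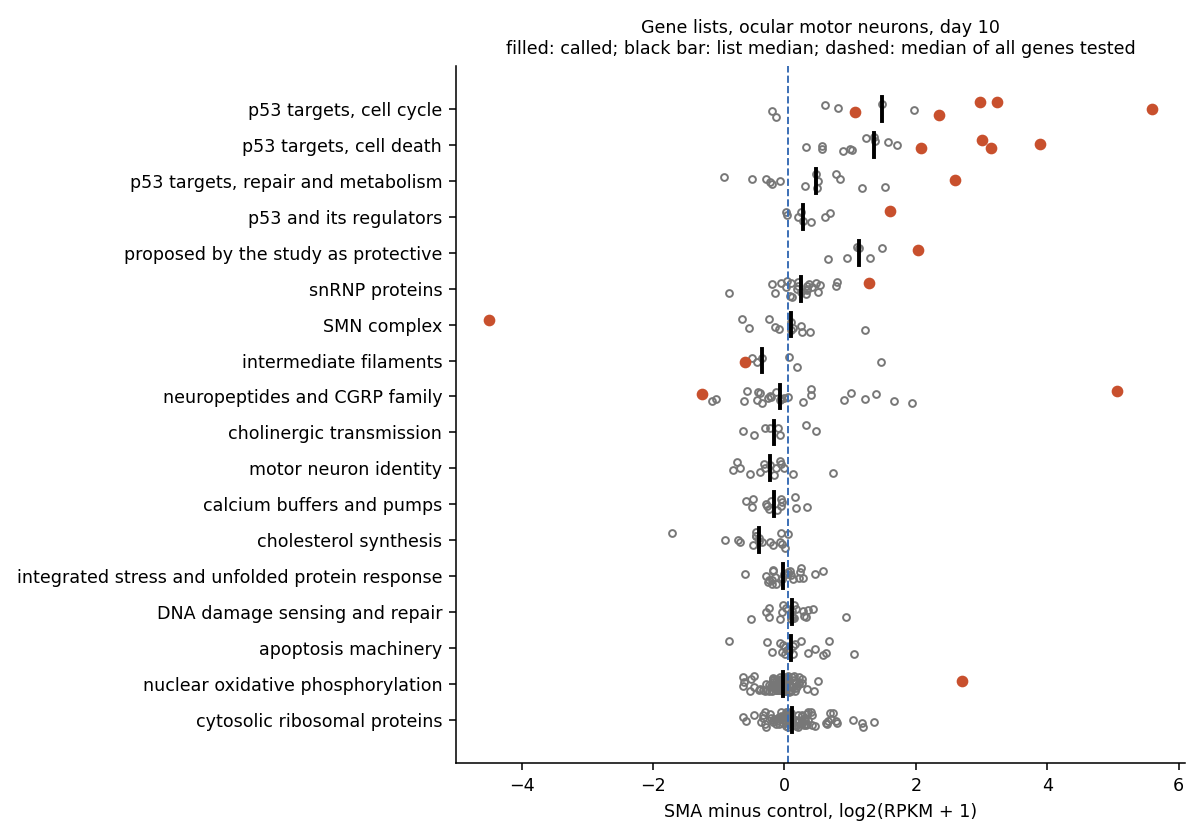
Difference between SMA and control (horizontal axis, log2(RPKM + 1)) of each tested gene in 18 lists, with called genes filled, the list median as a black bar and the median of all genes tested as a dashed line. The lists of p53 targets in cell cycle and cell death have medians of 1.49 and 1.36, and the cholesterol synthesis list has a median of -0.38.

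Several of the largest rises were outside those lists. Iapp encodes amylin, a peptide of the calcitonin gene-related peptide (CGRP) family that is best known from the pancreas, at chr6:142298423-142303961. It was listed at 0 in all 4 controls and at 15.2, 29.4, 66.8, 34.7 and 34.2 in SMA mice (difference 5.07, SE 0.28, adjusted p 7.8e-13). Because every control is at 0 the fitted size depends on the pseudocount. Ly6d, which encodes a lipid-anchored surface protein, was at 0 in 3 controls and 0.102 in control mouse 254, and at 14.6, 22.3, 20.3, 92.8 and 42.2 in SMA mice, highest in SMA mouse 250 (difference 4.95, SE 0.45, adjusted p 6.93e-08).

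Among genes expressed at a few RPKM in controls, those of a LIM domain protein, an antioxidant enzyme and a copine stood out. Crip2, the LIM domain gene, was at 3.46, 13.7, 18.4 and 11.4 in controls and 79.9, 88.6, 193.2, 71.0 and 200.9 in SMA mice (difference 3.36, SE 0.45, adjusted p 5.17e-05). Gpx3, which encodes a secreted glutathione peroxidase, was at 1.73, 8.77, 8.91 and 8.68 in controls and 75.3, 87.8, 67.6, 35.1 and 172.9 in SMA mice (difference 3.46, SE 0.45, adjusted p 4.78e-05). Cpne2, a calcium-dependent membrane-binding protein, was at 1.13 to 2.55 in controls and 13.2 to 63.4 in SMA mice (difference 3.52, SE 0.42, adjusted p 1.13e-05). In each of these 3 genes the lowest SMA mouse was more than 3 times the highest control.

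Further named rises covered repair of DNA and membrane, transcription and phosphatase signalling. Mgmt, which removes alkyl groups from DNA, was at 0 to 2.79 in controls and 6.18 to 25.7 in SMA mice (adjusted p 0.00785), and its call was lost without control mouse 247 or with a pseudocount of 0.1. Trim72, known from repair of the muscle membrane, was at 0.650 to 2.25 and 7.12 to 38.8 (adjusted p 4.78e-05). Tcea3, a transcription elongation factor, was at 0.192 to 1.76 and 12.5 to 18.3, with SMA mice close together (adjusted p 1.13e-05). Ptprv, a receptor-type tyrosine phosphatase gene, was at 0 to 1.26 and 8.73 to 33.5 (adjusted p 9.8e-05), and 2010001M06Rik, an unnamed transcript, at 0 to 2.499 and 7.32 to 47.6 (adjusted p 0.000112). Ptprv and Trim72 share exonic bases with antisense genes in the annotation. Cdkn1a shares 273 with AC167363.2 on the opposite strand, and Snrpa1 shares some with Gm45213 on its own strand. Whether strand was used in counting is not stated.

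Snord13, a small nucleolar RNA of 104 bases, was at 0, 4.56, 2.31 and 7.74 in controls and 57.4, 40.7, 95.5, 32.0 and 70.1 in SMA mice (difference 3.98, SE 0.77, adjusted p 0.00887). On a row this short a single read is worth 1.28 to 2.505 RPKM at the depth of these libraries, so control values rest on a few reads. Without control mouse 247 the call was lost. Snord67, named because it also passed a test between populations, shares 93 of its bases with exons of Ckap5. It was at 0 in the 4 controls and SMA mouse 258 and at 9.37 to 41.7 in the other 4 SMA mice (adjusted p 0.0201), and was no longer called when any mouse but SMA mouse 258 was left out.

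Rises in genes that were already well expressed were rarer: 7 of the 53 had a control mean above 10 RPKM, whereas 26 had a control mean below 1. Ccl17, which encodes a chemokine and was chosen for mention after its values were seen, was at 43.0, 48.2, 48.3 and 51.6 in controls and 192.01, 175.8, 162, 121.7 and 269 in SMA mice (difference 1.88, SE 0.31, adjusted p 0.00145). Cox6b2, the testis-type form of a cytochrome c oxidase subunit, was at 6.14, 5.95, 13.9 and 17.6 in controls and 67.8, 75.4, 54.5, 49.8 and 118.2 in SMA mice (difference 2.71, SE 0.36, adjusted p 4.78e-05). It was the single called member among 92 tested nuclear genes of oxidative phosphorylation, whose median difference was -0.03. Scn3b, a beta subunit of voltage-gated sodium channels chosen for mention after its values were seen, was at 0.751 to 2.85 in controls and 14.3 to 22.2 in SMA mice (adjusted p 6.93e-08).

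**Figure D4:**
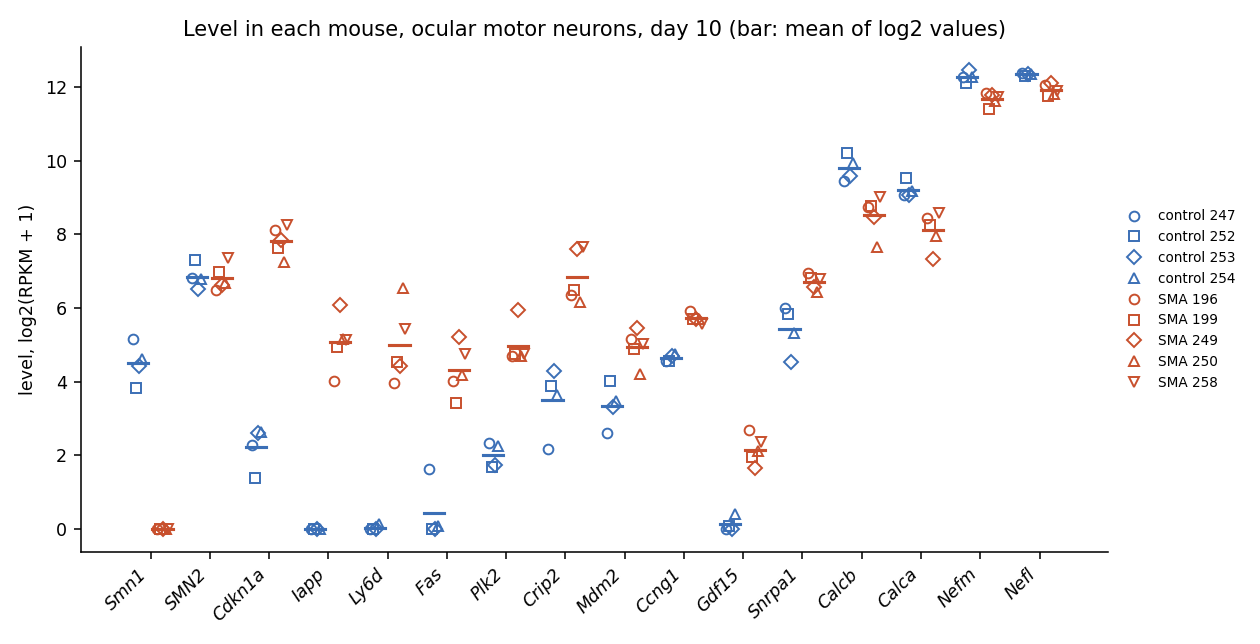
Level (vertical axis, log2(RPKM + 1)) of 16 genes in each of the 4 control mice (blue) and 5 SMA mice (orange), 1 symbol per mouse and bars at the mean of the log2 values. Cdkn1a, Iapp, Ly6d, Fas and Plk2 do not overlap between groups, SMN2 does, and Calcb, Calca, Nefm and Nefl lie lower in SMA mice.

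Calcb and Nefm, both abundant in these neurons, were the falls with the highest levels. Calcb, the gene of beta-CGRP, a peptide that motor neurons release at the neuromuscular junction, was at 692, 1179, 770 and 971 in controls and 430, 434, 355, 200.8 and 513 in SMA mice. Every SMA mouse was below every control, with a mean of 387 ± 117.9 (SD, n = 5) against 903 ± 218.6 (SD, n = 4), and SMA mouse 250 was the lowest. The difference was -1.26 (SE 0.25, adjusted p 0.00984), and without SMA mice 199 and 250, or without control mouse 252, the gene was not called (difference -1.04, SE 0.25, adjusted p 0.0812 without the SMA mice). Nor was it called with only the 2 groups compared or with the spread shared with lumbar, facial and vagus neurons. Calca, the gene of alpha-CGRP, was at 536 to 738 in controls and 158.5 to 383 in SMA mice without overlap, and did not pass the test (difference -1.10, SE 0.30, adjusted p 0.167). Iapp and Calcb, both of the CGRP family, were thus called in opposite directions, and they were the 2 calls among 27 tested genes of neuropeptides, whose median difference was -0.06.

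Nefm encodes the medium neurofilament protein, which with its light and heavy partners fills large axons. Its level was 4937, 4436, 5619 and 4937 in controls and 3673, 2694, 3548, 3123 and 3366 in SMA mice, a ratio of 0.659. The difference was small and even (-0.61, SE 0.12, adjusted p 0.0124), but the call was lost without SMA mouse 199, control mouse 247 or control mouse 253, and without SMA mice 199 and 250 together (difference -0.49, SE 0.14, adjusted p 0.203). It was lost also with no filter or with only the 2 groups compared. The same held without SMA mice 196 and 199 and with the spread shared with lumbar, facial and vagus neurons. Nefl, the light chain gene, was at 5201 ± 117.4 (SD) in controls and 3906 ± 417 (SD) in SMA mice, without overlap and without passing the test (difference -0.42, SE 0.12, adjusted p 0.219). Nefh and Prph had differences of -0.34 and -0.50 and did not pass it either. Exons annotated to Nefm share 1108 bases with Nefl on the opposite strand, so reads there cannot be assigned without strand. Gm10684, a long noncoding RNA, was at 6.21, 2.05, 1.73 and 0.948 in controls and at 0 to 0.807 in SMA mice (difference -1.40, SE 0.32, adjusted p 0.0484). Its call was lost when any mouse but SMA mouse 250 or control mouse 254 was left out. Of 7 tested intermediate filament genes, Nefm alone was called, and the median was -0.34.

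Genes of motor neuron identity and transmission lay slightly below 0 as lists and gave no calls. Of 15 tested identity genes, 13 had a difference below 0 (median -0.21), and none was called. Chodl, a marker of fast motor neurons, was closest to the threshold, at 163.1 to 231.6 in controls and 86.7 to 138 in SMA mice without overlap (difference -0.72, SE 0.17, adjusted p 0.054). Among 8 tested genes of cholinergic transmission the median was -0.16. Slc5a7, the choline transporter gene, was at 171.2 to 227.2 in controls and 72.2 to 163.5 in SMA mice (difference -0.63, SE 0.20, adjusted p 0.341), with SMA mouse 250, the library with red nucleus markers, lowest. Across all genes tested the median was 0.06, and 6824 of 15890 genes were below 0. Without SMA mice 199 and 250 the median of the identity list was -0.11 (8 of 15 genes below 0). That of the cholinergic list was then -0.24 (6 of 8 below 0), and 7515 of all 16515 genes tested in that setting were below 0.

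Genes of the SMN complex other than Smn1 were nearly level, and those of the spliceosomal proteins that the complex serves lay slightly above 0 as a list. Of 13 tested genes of the SMN complex, Smn1 alone was called, and the median over the list was 0.10. Of 25 tested genes of small nuclear ribonucleoproteins (snRNP), 21 had a difference above 0, with a median of 0.25, and Snrpa1 was called. Among all 15890 genes tested, 9027 were above 0. Snrpa1, which encodes a protein of the U2 snRNP, was at 63.2, 55.8, 21.9 and 39.3 in controls and 122.4, 111.6, 94.02, 85.7 and 110 in SMA mice (difference 1.29, SE 0.26, adjusted p 0.0142). Its call was lost without SMA mouse 196 or without either control mouse 253 or 254. It was lost also without SMA mice 196 and 199 and with only the 2 groups compared.

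A list of 8 genes that the study put forward as protective in ocular neurons was drawn from these samples, so its direction here is not independent evidence. Of its 7 tested members all 7 had a difference above 0, with a median of 1.14, and Gdf15 was called. Gdf15, a secreted stress cytokine of the TGF-beta superfamily, was at 0, 0.0588, 0 and 0.310 in controls and 5.39, 2.85, 2.15, 3.30 and 4.13 in SMA mice (difference 2.03, SE 0.40, adjusted p 0.0101), and its call was lost without control mouse 247. Syt1, the calcium sensor of synaptic vesicles, was at 31.7 to 35.2 in controls and 42.8 to 60.1 in SMA mice without overlap (difference 0.67, SE 0.19, adjusted p 0.229). Chl1, Pak4, Cplx2, Syt5 and Aldh4a1 had differences of 0.95, 1.31, 1.49, 1.10 and 1.14 and did not pass the test. Lif, the remaining member, was below the level filter, at 0 in all controls and at 6.56, 0.897, 0, 2.67 and 3.52 in SMA mice. In SMA mouse 250 Cplx2 was at 58.6, against 7.27 to 11.8 in the other SMA mice and 1.87 to 6.42 in controls.

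Other lists gave no call. Of 18 tested genes of cholesterol synthesis, 16 had a difference below 0 (median -0.38), and Mvk had the largest, at 60.5 to 77.2 in controls and 42.7, 34.5, 2.27, 28.8 and 23.4 in SMA mice (difference -1.71, SE 0.52, adjusted p 0.284). Of 79 tested cytosolic ribosomal protein genes, 53 had a difference above 0 (median 0.11). For all 15890 genes tested the counts were 9027 above 0 and 6824 below. Among 24 tested genes of the integrated stress and unfolded protein response and 22 of axon injury and regeneration, the medians were -0.02 and 0.08. Of 14 tested calcium buffers and pumps 11 had a difference below 0 (median -0.16). Tap1, on the list of antigen presentation and interferon genes, was at 0.0650 to 1.76 in controls and 6.59 to 15.7 in SMA mice without overlap (difference 2.25, SE 0.56, adjusted p 0.0873), and none of the 11 tested genes of that list was called.

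The oculomotor and trochlear nuclei could be set side by side in SMA mouse 196 and control mouse 254, a single mouse of each genotype, with no test. In SMA mouse 196 Cdkn1a was at 330 in the oculomotor and 218.7 in the trochlear library, Fas at 23.9 and 6.64, and Iapp at 22.2 and 8.20. In control mouse 254 Cdkn1a was at 6.55 and 3.91 and Iapp at 0 in both. Both nuclei of the SMA mouse were thus above both nuclei of the control. Cartpt was at 15393 in the oculomotor and 1374 in the trochlear library of SMA mouse 196. Without the trochlear libraries 58 genes were called higher and 7 lower.

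The SMA difference of ocular neurons was tested against that of 3 other motor neuron populations at day 10: lumbar (4 control and 5 SMA mice), facial (4 and 4) and vagus (4 and 5). Lumbar and facial neurons were taken as vulnerable populations and vagus neurons as another spared brainstem population. The same mice gave several populations. Against lumbar neurons 2 of 16861 genes (0.0119%) had a different SMA difference, against facial neurons 4 (0.0237%) and against vagus neurons 33 (0.196%). At an unadjusted p below 0.05 these counts were 635, 801 and 1192. Of the 57 genes called in ocular neurons, 25 were called in lumbar, 34 in facial and 1 in vagus neurons, where that gene was Smn1. Over all 16861 genes tested, 0.474% were called in lumbar, 1.03% in facial and 0.0356% in vagus neurons.

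Over the 53 rises the median SMA difference was 1.72 in lumbar, 2.11 in facial and 0.01 in vagus neurons. Cdkn1a was at 354 ± 88.997 (SD, n = 4) in facial and 200 ± 56.9 (SD, n = 5) in lumbar SMA neurons, against 6.85 ± 4.07 and 6.90 ± 5.73 in their controls (n = 4 each). In vagus neurons it was at 43.3 ± 14.0 in SMA mice (n = 5) and 40.0 ± 16.7 in controls (n = 4), which overlapped. The SMA difference in ocular neurons exceeded that in vagus neurons by 5.41 (SE 0.58, adjusted p 1.89e-06), and differed from the facial by -0.11 (SE 0.60) and from the lumbar by 0.74 (SE 0.58), neither of which passed the test. Of the 33 genes that differed from vagus neurons, 21 were among the 57 called in ocular neurons, including Fas, Plk2, Lrdd, Pmaip1, Crip2 and Gpx3. The ocular difference enters both selections, so this overlap is partly built in.

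Of these 4 populations, the mean SMA level of Iapp was highest in ocular neurons. It was at 36.1 ± 18.9 (SD) in ocular, 8.27 ± 7.06 in lumbar (n = 5), 5.90 ± 6.85 in facial (n = 4) and 2.44 ± 3.53 in vagus SMA neurons (n = 5), and at 0 in all ocular, lumbar and facial controls. Its SMA difference exceeded that of vagus neurons by 5.45 (SE 1.14, adjusted p 0.0325). Against lumbar and facial neurons the excess was 2.48 (SE 1.14) and 3.23 (SE 1.17), and neither passed the test, with adjusted p of 1 and 0.944.

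All 4 calls against facial neurons and 1 of the 2 against lumbar neurons had a smaller SMA difference in ocular neurons. Slc13a4, a sulfate transporter gene, was at 6.55 ± 0.75 in facial SMA neurons (n = 4) and 9.67 ± 4.96 in lumbar SMA neurons (n = 5), and at 0.126, 0.564, 0, 0 and 0.868 in ocular SMA mice. The difference between ocular and facial neurons in its SMA difference was -2.45 (SE 0.40, adjusted p 0.013) and that between ocular and lumbar neurons -2.23 (SE 0.39, adjusted p 0.0402). Gfap, the intermediate filament of astrocytes, was at 16.99 ± 4.88 in facial SMA neurons against 1.63 ± 0.99 in facial controls (n = 4 each), and at 0 to 2.65 in ocular neurons of both genotypes (difference between populations -2.59, SE 0.49, adjusted p 0.0413). Tnfrsf26, a receptor gene of the TNF family, was at 8.39 ± 2.65 in facial SMA neurons and at 0 to 1.82 in ocular SMA neurons (difference between populations -2.08, SE 0.38, adjusted p 0.0245). Anxa8, an annexin gene, was at 1.98 ± 0.95 in facial SMA neurons and 0 in all ocular mice (difference between populations -1.43, SE 0.25, adjusted p 0.0238). The other call against lumbar neurons was Snord67 (5.28, SE 0.96, adjusted p 0.0403), which had a larger SMA difference in ocular neurons and whose annotated bases overlap exons of Ckap5. The calls against lumbar and facial neurons were few and unsteady: with a pseudocount of 0.1 both counts were 0, without any of the 4 control mice the count against lumbar neurons was 0, and it was 0 also without SMA mouse 196, 1 without SMA mouse 199 or 250 and 5 without SMA mouse 258. Against facial neurons it was 0 without SMA mouse 250 or control mouse 252, 253 or 254 and 1 without SMA mouse 258. Against vagus neurons it was 10 without control mouse 253 and 17 or 18 without SMA mouse 199 or control mouse 247, 252 or 254.

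**Figure D5:**
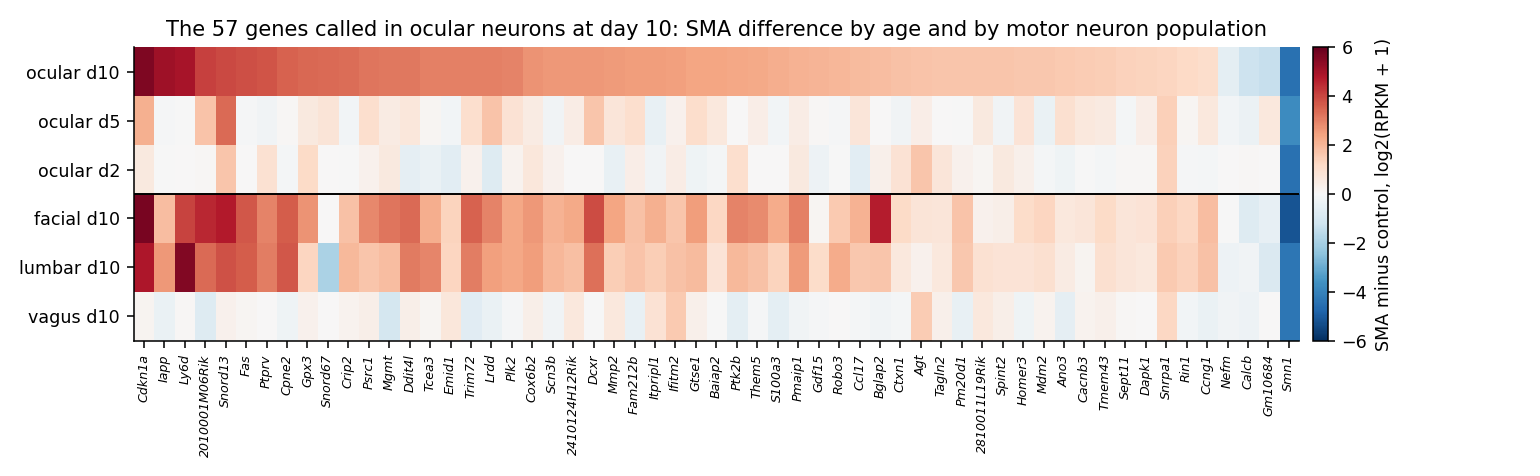
SMA minus control difference (colour, log2(RPKM + 1)) of the 57 genes called in ocular neurons at day 10 (columns, in order of that difference), in ocular neurons at each age (upper 3 rows) and in facial, lumbar and vagus neurons at day 10 (lower 3 rows). Smn1 is low in every row, and most rises are also red in facial and lumbar neurons and pale in vagus neurons.

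The same neurons at day 2 (4 control and 6 SMA mice) and day 5 (4 control and 5 SMA mice) give the difference at earlier ages. Between day 10 and day 2 the SMA difference changed for 20 of 15890 genes (0.126%), 18 of them toward a larger value at day 10, and between day 10 and day 5 for 9 (0.0566%), 8 of them toward a larger value. Of these, 17 of 20 and 8 of 9 were among the 57 called at day 10. The day 10 difference enters both these tests and that selection, so the overlap is partly built in. Without SMA mouse 249 or control mouse 254 the first count was 12.

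The group means of Cdkn1a were lower at each later age in controls and higher at each later age in SMA mice. In controls it was at 48.4 ± 13.4 (SD) at day 2, 25.4 ± 9.90 at day 5 and 3.93 ± 1.66 at day 10 (n = 4 each). In SMA mice it was at 73.6 ± 17.35 (n = 6), 123.7 ± 86.05 (n = 5) and 231.6 ± 60.6 (n = 5). The SMA difference was 0.60 (SE 0.34, adjusted p 0.524) at day 2 and 2.13 (SE 0.35, adjusted p 0.00973) at day 5, and at day 10 it was larger than at day 2 by 5.00 (SE 0.49, adjusted p 6e-07) and than at day 5 by 3.47 (SE 0.50, adjusted p 0.000662).

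The SMA difference of Iapp, Ly6d and Crip2 was larger at day 10 than at either earlier age. Iapp was at most 0.225 in every ocular mouse at day 2 and day 5 and its SMA difference at day 10 was larger by 5.11 (SE 0.38, adjusted p 2.19e-09) and 5.11 (SE 0.39, adjusted p 3.38e-09). For Ly6d the differences between ages were 4.95 (SE 0.63, adjusted p 9.08e-05) and 4.99 (SE 0.64, adjusted p 0.000111). Crip2 was at 18.0 ± 8.35 in SMA mice and 18.9 ± 7.81 in controls at day 5, and its change from day 5 was 3.51 (SE 0.64, adjusted p 0.0147). Ptprv was the third largest increase from day 5 (3.94, SE 0.74, adjusted p 0.0211).

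Snrpa1 did not follow that course. It was at 84.6 ± 15.5 in SMA mice and 33.8 ± 12.9 in controls at day 2, and at 103 ± 19.1 and 37.6 ± 4.97 at day 5. Its SMA difference was 1.37 (SE 0.25, adjusted p 0.0211) at day 2, 1.41 (SE 0.26, adjusted p 0.0441) at day 5 and 1.29 at day 10, and in lumbar and facial neurons at day 10 it was 1.57 (adjusted p 0.00623) and 1.41 (adjusted p 0.0195). In vagus neurons it was 1.26 and did not pass the test (adjusted p 0.126). The change in that difference to day 10 was -0.08 (SE 0.37) from day 2 and -0.12 (SE 0.37) from day 5.

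Calcb and Nefm were not called at either earlier age. Calcb was at 465 ± 149 in controls and 486 ± 133 in SMA mice at day 2, and at 930 ± 112.6 and 736 ± 153.1 at day 5. The change in its SMA difference from day 2 to day 10, -1.34 (SE 0.34, adjusted p 0.179), did not pass the test. Nefm was at 4015 ± 227.96 and 4088 ± 442 at day 2 and the change was -0.63 (SE 0.17, adjusted p 0.224). The genes with a smaller SMA difference at day 10 than before were Cbx6_ann3 and Psmg3 against day 2 and Chrac1 against day 5. Each was called higher in SMA mice at the earlier age: Psmg3, a proteasome assembly gene, was at 60.3 ± 23.8 in SMA mice and 18.9 ± 13.6 in controls at day 2, Cbx6_ann3 at 13.8 ± 7.78 and 0.324 ± 0.648, and Chrac1, a chromatin remodelling gene, at 58.3 ± 28.05 and 11.6 ± 2.96 at day 5.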

How the data were processed

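RPKM values, as deposited by the authors, came in a table of 39410 rows and 168 libraries. The submitters' processing notes name STAR 2.4.1c and the builds mm10 and hg19, and the read counter, annotation and use of strand are not given in the sources used here. RPKM of libraries of the same mouse were averaged. The test was limma (version 3.58.1, under R 4.3.3) with eBayes, a trend and Benjamini-Hochberg adjustment, two-sided, and it took log2(RPKM + 1). The fit for age held the 6 ocular groups (28 mouse samples), and the fit for populations the 8 day 10 groups of ocular, lumbar, facial and vagus neurons. A gene was tested when RPKM was at least 1 in 4 or more mouse samples. No count test was run, since the values are not counts. Depth was taken from the smallest steps of low values in genes with a single GENCODE M21 transcript, and 76.6% to 79.9% of their low values in these 12 libraries lay within 0.05 of a whole read. Samples of the same mouse in different populations are paired by animal: their deviations from group means correlated at r = 0.0516 on average (51 pairs, 45 above 0), against -0.00523 (484 pairs) between mice. Genes named are Smn1, SMN2, the 15 largest rises and up to 8 largest falls among called genes without overlap and with a mean of at least 10 RPKM in the higher group, called list genes, and the 3 largest on each side of each test of a difference. The members and lists were chosen with earlier results of these data known. The script was tested on simulated data. In that test, which simulated the ocular day 10 comparison with 15882 genes, 48% of 100 genes changed by 1 and 95% of 100 changed by 2 on the log2 scale were recovered. The changed genes were drawn from those with at least 10 RPKM in most mouse samples, so these shares do not cover genes with low values. Positions are from GENCODE M21 (GRCm38) and promoters from RefSeq. The authors' RPKM for overlapping genes and close paralogs are uncertain.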

Additional observations from a re-analysis of the deposited data

Results flagged for a closer look

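Some mouse values stood far from the rest of their group, by the gap to the nearest mouse relative to the range of the group, in 7 of 56 groups of 4 or 5 mice looked at. Chance gives about 5% for groups without ties, a rate that does not hold for Ly6d, Psrc1 and Ddit4l, where 3 controls are tied at 0 and any value above 0 stands apart. In controls, Ly6d was at 0.102 in mouse 254 and 0 in the others, Psrc1 at 0.0554 in mouse 254 and 0 in the others, and Ddit4l at 0.796 in mouse 253 and 0 in the others. Fas was at 2.10 in control mouse 247 against 0 to 0.0610 in the others, Mgmt at 2.79 in control mouse 254 against 0 to 0.408, and Gpx3 at 1.73 in control mouse 247 against 8.68 to 8.91. Plk2 was at 60.3 in SMA mouse 249 against 25.04 to 25.8 in the other SMA mice, where SMA mouse 196 is an average of libraries at 29.1 and 21.1. In each of these genes the groups still did not overlap, which is partly built in because all of them were called on these same values.

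The SMA difference of ocular neurons differed from that of another population or age, by limma's test of the difference with adjusted p below 0.05, for these named genes. It was larger than in vagus neurons for Iapp (5.45), Cdkn1a (5.41) and 2010001M06Rik (4.89), and smaller for Nudt8 (-4.63), Msantd1 (-2.26) and Cdh20 (-1.70), whose means were higher in SMA than in control vagus neurons. Against lumbar neurons it differed for Slc13a4 (-2.23) and Snord67 (5.28), and against facial neurons for Gfap (-2.59), Slc13a4 (-2.45), Tnfrsf26 (-2.08) and Anxa8 (-1.43). From day 2 to day 10 it grew for Iapp (5.11), Cdkn1a (5.00) and Ly6d (4.95) and shrank for Cbx6_ann3 (-4.68) and Psmg3 (-2.43). From day 5 to day 10 it grew for Iapp (5.11), Ly6d (4.99) and Ptprv (3.94) and shrank for Chrac1 (-2.81).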

How the results depend on the processing

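With 4 and 5 mice and 3.84 to 7.49 M reads per library, precision is limited: in simulated data 48% of genes changed by 1 on the log2 scale were recovered. Those genes had at least 10 RPKM in most mouse samples, whereas 26 of the 53 rises had a control mean below 1. Of the 57 calls, 24 held under all 18 alternatives, and no called named gene changed sign. The difference of SMN2, not called, ran from -0.16 to 0.13. Rises numbered 95 with each library as its own sample, 35 without SMA mice 196 and 199, 88 with the spread shared with the 3 other populations, and 35 to 61 leaving out each mouse. Falls numbered 7 with no filter, 7 without trochlear libraries, 2 without SMA mice 196 and 199, 2 without SMA mice 199 and 250, 9 with the shared spread, and 2 to 5 leaving out each mouse. The shared spread and the removal of SMA mice 199 and 250 were chosen after seeing the data. Tests of difference gave 0 genes (lumbar), 0 (facial), 21 (vagus) and 10 (day 2) with a pseudocount of 0.1, and 17 with no filter and 18 with quantile normalization for vagus. Leaving out each mouse gave 0 to 5 (lumbar), 0 to 6 (facial), 10 to 28 (vagus), 12 to 28 (day 2) and 7 to 12 (day 5). With the mouse as a replicate block the counts were 2, 6 and 42, against 2, 4 and 33, none over 1.5 times away. The cause of these changes was not tested.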
